A study of Mus musculus with 4 samples.

Results

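The proliferation genes described here are 45 genes of the cell cycle, comprising cyclins and their kinases, replication genes and genes of mitosis. They were chosen by name out of 29924 genes that the array files name, and each was represented by the brightest of its probes. Their RNA was measured in the organ of Corti, which is the strip of hair cells and supporting cells in the cochlea, of mouse embryos at E18.5 (E for embryonic day), on 4 dual-colour Agilent arrays. Each array held 1 pool of the basal part of the organ from Sox2-Tbx2LOF embryos and 1 pool from control embryos of the same sex, with female pools on arrays 1 and 2 and male pools on arrays 3 and 4. On arrays 1 and 3 the dye Cy3 marked the Sox2-Tbx2LOF RNA, on arrays 2 and 4 it was Cy5, so that n = 4 pools per genotype and the dyes were swapped within each sex. The comparison asked which transcripts differ once Tbx2, a transcription factor of the inner hair cell and its supporting cells, is deleted after these cells have formed.

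Sox2-Tbx2LOF embryos had the labelled genotype Sox2(creERT2);Tbx2(fl/fl): both Tbx2 alleles were flanked by loxP sites, and the tamoxifen-activated recombinase CreERT2 was knocked into the Sox2 gene. Control embryos were labelled Tbx2(fl/n.d.), with the other Tbx2 allele not determined, and lacked the recombinase according to the methods of the study. All embryos were of the NMRI strain, and their mothers had received 4 mg of tamoxifen at E16.5 and, by the methods, progesterone. The crosses in the methods used mothers homozygous for the R26 mTmG reporter, so a copy of it is expected in both genotypes. CreERT2 acts where Sox2 is expressed, which leaves other cells of the dissected tissue without recombination, and the effect of the knock-in allele cannot be told apart from that of Tbx2 loss. A pool joins tissue of several embryos. In such bulk RNA, fewer cells of a type and less RNA per cell cannot be told apart.

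A cell enters the division cycle when D-type cyclins with the kinases Cdk4 and Cdk6 inactivate the retinoblastoma protein and free E2F factors, which switch on the genes of DNA replication. Genes of mitosis follow later in the cycle, driven by B-Myb and Foxm1 together with the MuvB complex. In the cochlea the progenitors of hair cells and supporting cells leave the cycle well before birth, with the inhibitor Cdkn1b taking part, whereas glia, vessel cells and mesenchyme next to them go on dividing.

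Promoters of many cell cycle genes hold short sequence words that serve as binding sites in this programme. In the 250 bases before the start site, the CCAAT box (CCAAT) was in 71.1% of the 38 RefSeq windows found for 36 members, against 33.8% of all 32851 windows of the table. The E2F core (TTGGCGC or its variants, which are spelled TTCGCGC and also TTCCCGC or else TTGCCGC) was in 28.9% of members' windows and in 7.89% of all windows. The cell cycle homology region, or CHR (TTTGAA or TTCGAA), was in 23.7% against 17.1%. Both strands were read, and words of different kinds may share bases, as the reversed CCAAT box (ATTGG) and TTGGCGC do. At least 2 CCAAT boxes were in 39.5% of members' windows, against 10.1% of all. All 6 windows of the mitotic entry genes held a CCAAT box, and 5 of the 8 windows of the origin licensing genes held an E2F core. None of these words was in 10 of the 38 windows of members. Among these were 3 of the 4 windows of the G1 genes and 2 of the 2 of the transcription factors. A match is a run of letters and no measured binding site. No window was found for Ccne2, Aurkb, Ccnd2, Ccna2, Foxm1, Tpx2, Cdc25c, Mcm4 and Ccnd1.

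The 150 bases before the start site are printed 5′ to 3′ for Rrm2, the member with the lowest ratio over the 4 arrays, for Top2a, with the lowest adjusted p, for the mitotic genes Cdk1, Mki67 and Ccnb2, and for Cdk4, a G1 kinase without any of these words. Capitals mark the words on either strand, and the positions are those of RefSeq on GRCm38.p6.
Rrm2 (chr12:24708104-24708253, plus strand): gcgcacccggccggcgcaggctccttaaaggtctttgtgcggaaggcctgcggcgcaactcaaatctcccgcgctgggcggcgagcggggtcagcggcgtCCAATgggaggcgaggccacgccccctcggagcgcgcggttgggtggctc
Top2a (chr11:99024190-99024339, minus strand): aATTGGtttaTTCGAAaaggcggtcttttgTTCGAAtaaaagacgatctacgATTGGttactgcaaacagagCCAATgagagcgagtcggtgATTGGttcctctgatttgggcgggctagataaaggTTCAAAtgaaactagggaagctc
Cdk1 (chr10:69352913-69353062, minus strand): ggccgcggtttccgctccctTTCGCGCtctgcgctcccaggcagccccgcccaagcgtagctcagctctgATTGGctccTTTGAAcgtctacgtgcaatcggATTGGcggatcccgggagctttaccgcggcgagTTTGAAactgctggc
Mki67 (chr7:135716380-135716529, minus strand): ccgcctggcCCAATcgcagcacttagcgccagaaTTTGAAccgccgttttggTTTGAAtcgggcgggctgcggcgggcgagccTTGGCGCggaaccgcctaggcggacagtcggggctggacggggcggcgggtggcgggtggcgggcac
Ccnb2 (chr9:70421555-70421704, minus strand): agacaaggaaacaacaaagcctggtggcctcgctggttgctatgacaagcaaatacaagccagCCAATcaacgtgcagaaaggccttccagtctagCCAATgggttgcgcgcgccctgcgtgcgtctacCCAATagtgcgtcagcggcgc
Cdk4 (chr10:127063385-127063534, plus strand): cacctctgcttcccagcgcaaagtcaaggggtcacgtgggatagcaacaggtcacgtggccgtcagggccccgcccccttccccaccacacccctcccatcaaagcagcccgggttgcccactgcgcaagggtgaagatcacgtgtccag
Top2a held 4 CCAAT boxes and 3 CHR words in this stretch, and Ccnb2 held 3 CCAAT boxes and no CHR. Cdk1 and Mki67 each held 2 CHR words and 1 E2F core.

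Per pool, the scanner flagged 70.4% to 75.2% of probe spots of Sox2-Tbx2LOF and 70.6% to 74.3% of those of control as well above background, and no spot was saturated. All 4 arrays lay on 1 slide and were read in 1 scan. Log2 ratios of arrays with swapped dyes correlated across probes with r of −0.27 to −0.09, and those of the same dye with r of 0.42 and 0.44. The limma fits for genotype and for sex by genotype therefore had a dye term, except in the alternative without one. SAM and the comparison of levels between sexes had none. At the Tbx2 probe the log2 ratio averaged −0.15 ± 0.14 (SD, n = 4), with an unadjusted p of 0.0106 and an adjusted p of 0.313 in limma. All 9 hair cell and all 9 supporting cell markers, such as Myo7a and Sox2, were above the detection limit of the test, and so were 10 of 10 mesenchyme, 7 of 7 glia, 7 of 7 neuron, 6 of 6 vessel and 6 of 6 macrophage markers.

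Proliferation genes were readily detected in both genotypes. A probe counted as well above background in a pool when over 0.5 of its spots were flagged so, and 44 of the 45 members reached this in all 8 pools, against 68.5% of all probes. The exception was Ccne2, a cyclin of the entry into S phase, which was well above background in 1 Sox2-Tbx2LOF pool and in 0 control pools and was not tested. A probe was tested when it reached this on at least 3 of 4 arrays in either genotype, as did 71.3% of all probes.

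The fitted log2 ratio of Sox2-Tbx2LOF over control was below 0 for 44 of 44 tested members, against 48% of all 28104 tested probes. No member passed the test. With limma, 0 of 44 had an adjusted p under 0.05 and a fold of at least 1.5, where 0.249% of all tested probes did, and 0 had an adjusted p under 0.05 at any fold, where 0.986% of all did. The lowest adjusted p was 0.227, for Top2a. At an unadjusted p under 0.05 there were 16 members, all with a lower level in Sox2-Tbx2LOF, against 3.54% of all tested probes that were lower and 3.58% that were higher at that limit. SAM, the method named in the study, was run anew on the levels used here, with 70 regroupings of the pools and a threshold (delta) of 0.85. The study's own run used another delta and number of permutations. Here SAM called 0 members (0.213% of all tested probes). Unpaired limma called 0 at an adjusted p under 0.05 (0.445% of all), with 13 at an unadjusted p under 0.05 (4.43% of all, in either direction).

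The differences were small. The median log2 ratio of the tested members was −0.12, or −7.83%, while that of all tested probes was 0.0024. Among members the fitted ratio lay between −0.24 for Rrm2 and −0.0038 for Cdk6, with an SD over genes of 0.051. The SE of a single gene was 0.046 to 0.083. A log2 ratio below 0 was seen on 4 of 4 arrays for 8 members and on exactly 3 of 4 arrays for 30 members, where 4.58% of all probes were lower on every array and 20.4% on exactly 3. No member was higher on all 4 arrays, as 4.44% of all probes were. By array, the median over members was −0.12, −0.048, −0.17 and −0.13 on arrays 1 to 4, and 34, 26, 36 and 38 of the 44 members lay below 0. Of all 28104 tested probes, 13322, 14505, 13375 and 14785 lay below 0 on these arrays. For members, array 2 stood nearest to 0 and nearest to the share of all probes. A level here is the log2 brightness of a pool's channel after normalization within and between arrays, and levels of different genes are not set against each other. Averaged over the members, the normalized log2 level was 11.87 to 11.95 in the Sox2-Tbx2LOF pools and 12.00 to 12.08 in the control pools, which did not overlap. Single genes overlapped between the groups in most cases: all Sox2-Tbx2LOF pools were below all control pools for 4 members, namely Ccnd1, Top2a, Bub1b and Birc5, and for 1.33% of all tested probes. The reverse was seen for 0 members and for 1.2% of all probes.

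**Figure D1:**
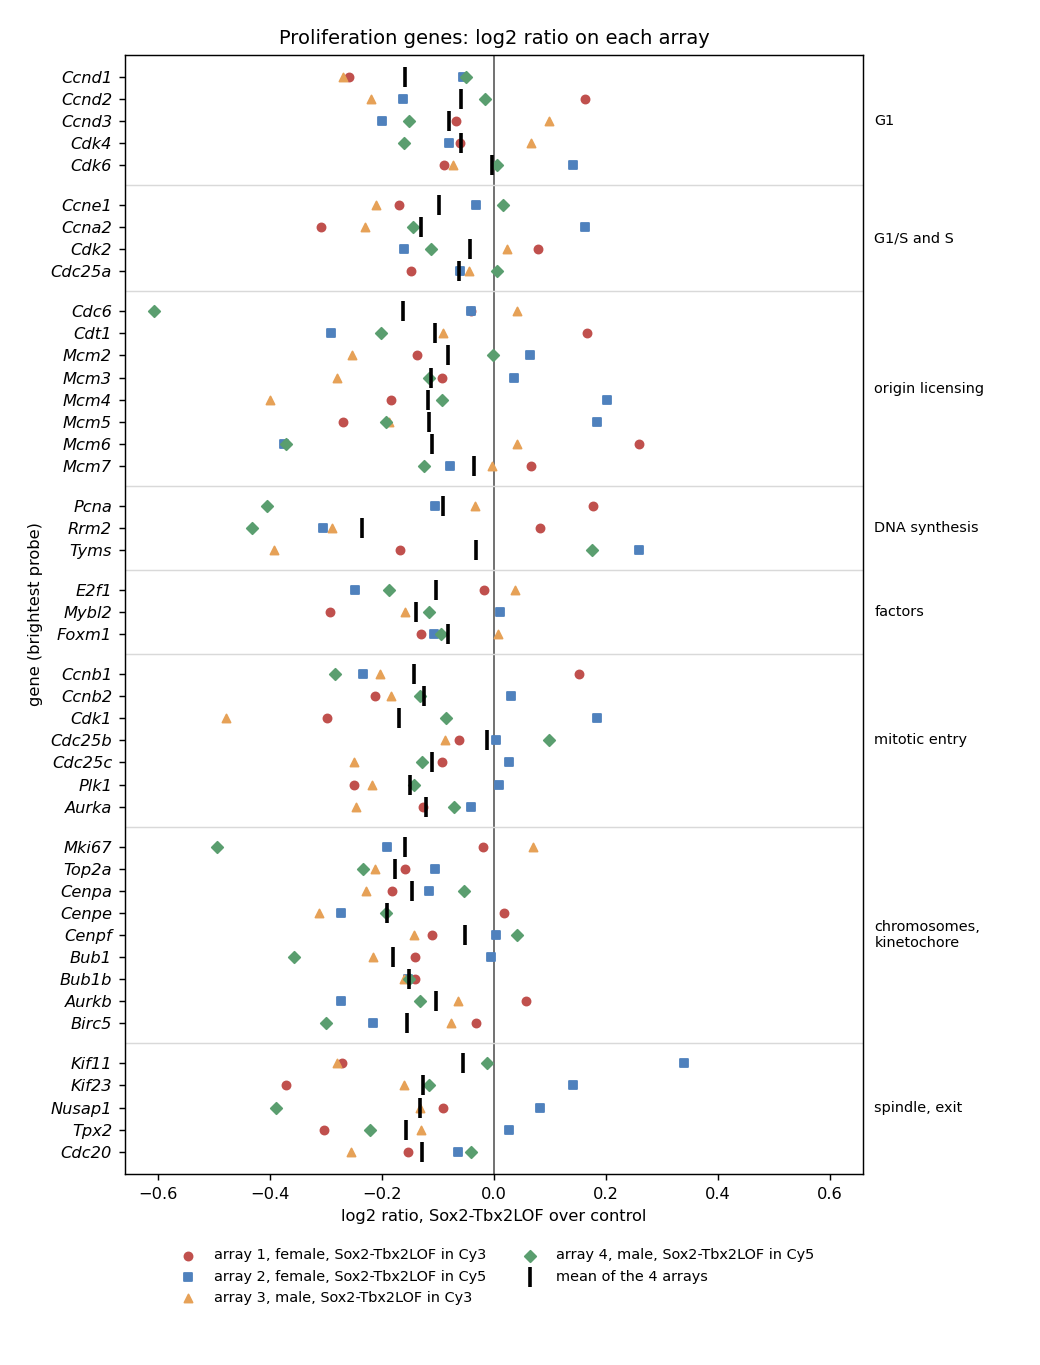
Log2 ratio of Sox2-Tbx2LOF over control on each of the 4 arrays (x axis) for the 44 tested proliferation genes (y axis), grouped by role, with the black bar at the mean of the 4 arrays. Every bar lies left of 0, and single arrays lie on both sides of 0 for all but 8 genes.

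The G1 genes had a median log2 ratio of −0.059 over 5 of 5 tested genes, which lay between −0.093 without array 4 and −0.039 without array 1. Ccnd1, the D-type cyclin that growth factors induce, was at log2 levels of 13.37, 13.55, 13.57 and 13.60 in Sox2-Tbx2LOF pools 1 to 4 and at 13.63, 13.60, 13.84 and 13.64 in control pools 1 to 4. The highest Sox2-Tbx2LOF pool lay just under the lowest control pool, so the groups did not overlap. The mean log2 ratio of Ccnd1 was −0.16 ± 0.12 (SD, n = 4), lower on 4 of 4 arrays (SE 0.046, unadjusted p 0.00794, adjusted p 0.266). It was −0.27 with Sox2-Tbx2LOF in Cy3 and −0.053 in Cy5.

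Ccnd2, another D-type cyclin of dividing progenitors, had levels of 14.67, 14.21, 14.02 and 14.27 in Sox2-Tbx2LOF and of 14.51, 14.37, 14.24 and 14.29 in control. Female pool 1 of Sox2-Tbx2LOF was the highest and male pool 3 the lowest of all 8, and the groups overlapped. For Ccnd3, the D-type cyclin that often stays on as cells differentiate, the levels were 15.14, 14.92, 15.10 and 14.92 against 15.21, 15.12, 15.00 and 15.07, again with overlap. Mean log2 ratios were −0.059 ± 0.17 (SD, n = 4) for Ccnd2 and −0.081 ± 0.13 (SD, n = 4) for Ccnd3, with unadjusted p of 0.41 and 0.147. Cdk6, a kinase partner of these cyclins, was the member nearest to 0 in the main fit. Its levels were 7.32, 7.42, 7.26 and 7.31 in Sox2-Tbx2LOF pools and 7.41, 7.28, 7.33 and 7.31 in control pools, and the groups overlapped. The mean for Cdk6 was −0.0038 ± 0.10 (SD, n = 4; p 0.939). Its probe was dim, and with the scanner software's log ratio Cdk6 was at −0.035 and no longer the nearest. The other kinase, Cdk4, was at −0.059 ± 0.094 (SD, n = 4).

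Among genes of the G1/S transition, 4 of 5 were tested and their median log2 ratio was −0.081. Ccna2, the cyclin of S phase and G2, was at −0.13 ± 0.21 (SD, n = 4) and Ccne1, the partner of Cdk2 at the start of replication, at −0.099 ± 0.11 (SD, n = 4). Cdk2 itself was at −0.043 ± 0.11 (SD, n = 4), and Cdc25a, the phosphatase that activates Cdk2, at −0.062 ± 0.064 (SD, n = 4). Unadjusted p-values of these genes were 0.0589 to 0.384.

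The origin licensing genes load the replicative helicase onto DNA in G1, Cdc6 and Cdt1 as loaders and Mcm2 to Mcm7 as the helicase itself. All 8 were below 0, with a median log2 ratio of −0.11. By the brightest probe, 0 of 8 had an unadjusted p under 0.05, against 3.54% of all tested probes that were lower. Further probes of Mcm3 and Cdc6, given below, did reach it. The median of the 8 genes was −0.061 without array 3 and −0.056 without array 4. Mcm2 had levels of 11.84, 11.85, 11.66 and 11.93 in Sox2-Tbx2LOF and of 11.98, 11.79, 11.92 and 11.93 in control. Only Sox2-Tbx2LOF pool 3 stood below all other pools, and the groups overlapped. The mean for Mcm2 was −0.083 ± 0.14 (SD, n = 4) (SE 0.049, unadjusted p 0.127, adjusted p 0.987). Single arrays disagreed for the helicase genes. Mcm6 was at 0.15 with Sox2-Tbx2LOF in Cy3 and at −0.37 in Cy5, while Mcm4 was at −0.29 and 0.055. Their mean log2 ratios over the 4 arrays, −0.11 and −0.12, were nearly equal. Mcm3, Mcm5 and Mcm7 were at −0.11 ± 0.13 (SD, n = 4), −0.12 ± 0.20 (SD, n = 4) and −0.036 ± 0.084 (SD, n = 4), and Cdt1 was at −0.10 ± 0.20 (SD, n = 4). A further Mcm3 probe had a mean of −0.14 with ratios of −0.12, −0.059, −0.21 and −0.16 (limma, unadjusted p 0.0215, adjusted p 0.475).

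Cdc6 rested on a single array. Its log2 ratios were −0.041, −0.041, 0.041 and −0.61 on arrays 1 to 4, so array 4 alone carried the mean of −0.16 ± 0.30 (SD, n = 4) (unadjusted p 0.0855, adjusted p 0.869). Without array 2 the fit gave −0.30 and an adjusted p of 0.0278. In that fit array 4 was the only array with Sox2-Tbx2LOF in Cy5. Cdc6 was the single member with an adjusted p under 0.05 under any processing tried. A further Cdc6 probe had a mean of −0.17 with ratios of 0.11, −0.27, −0.29 and −0.24 (limma, unadjusted p 0.0308, adjusted p 0.568).

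Of the genes of DNA synthesis, Rrm2 had the lowest ratio of all members over the 4 arrays. Without array 3 its ratio was −0.14, and Tpx2, at −0.20, was then the lowest. Without array 2 the lowest was Cdc6, at −0.30, and without array 4 it was Cenpe, just below Rrm2. Rrm2 encodes the small subunit of ribonucleotide reductase, which makes deoxynucleotides and is made in S phase. Its log2 levels were 13.49, 13.31, 13.20 and 13.30 in the Sox2-Tbx2LOF pools and 13.41, 13.62, 13.49 and 13.73 in the control pools. The 3 lowest pools were of Sox2-Tbx2LOF, but pool 1 of that group lay above control pool 1, so the groups overlapped. The mean log2 ratio of Rrm2 was −0.24 ± 0.22 (SD, n = 4), or −15.1%, with ratios of 0.083, −0.31, −0.29 and −0.43 on arrays 1 to 4 (SE 0.066, unadjusted p 0.0067, adjusted p 0.242). It was measured by a probe at mm9 chr12:25398824-25398883 that starts at base 1992 of the transcript.

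Pcna, the sliding clamp of the DNA polymerases, had levels of 14.59, 14.52, 14.47 and 14.39 against 14.42, 14.62, 14.51 and 14.80 in control. The highest and the lowest pool were both from array 4, and the groups overlapped. The Pcna ratio averaged −0.092 ± 0.24 (SD, n = 4) (p 0.186). Tyms makes thymidylate, and its levels were 8.72, 9.04, 8.68 and 8.98 in Sox2-Tbx2LOF and 8.88, 8.78, 9.07 and 8.81 in control. Its pools followed the dye, as the ratio was −0.28 with Sox2-Tbx2LOF in Cy3 and 0.22 in Cy5, and its mean of −0.032 ± 0.30 (SD, n = 4; p 0.576) was among the 3 nearest to 0.

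All 3 transcription factors were below 0. Mybl2, the gene of B-Myb, was at 10.96, 10.997, 10.998 and 11.04 in Sox2-Tbx2LOF pools and at 11.26, 10.99, 11.16 and 11.15 in control pools. Control pool 2 lay within the Sox2-Tbx2LOF values and the other control pools lay above them. The mean log2 ratio of Mybl2 was −0.14 ± 0.12 (SD, n = 4) (SE 0.051, unadjusted p 0.0246, adjusted p 0.51). A further Mybl2 probe was nearer to 0, with a mean of −0.0635 (unadjusted p 0.322). Its ratios were 0.22, −0.15, −0.087 and −0.24 on arrays 1 to 4. E2f1, an activator of replication genes, was at −0.10 ± 0.14 (SD, n = 4), and Foxm1, an activator of mitosis genes, at −0.081 ± 0.061 (SD, n = 4).

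Mitotic entry genes switch on or form the kinase that drives a cell into mitosis, and the median log2 ratio of the 7 genes was −0.13. Cdk1 is that kinase. Its levels were 10.69, 10.89, 10.47 and 10.83 in Sox2-Tbx2LOF and 10.99, 10.705, 10.95 and 10.91 in control, where array 2 ran opposite to the others and the groups overlapped. The mean for Cdk1 was −0.17 ± 0.29 (SD, n = 4) (SE 0.061, unadjusted p 0.0216, adjusted p 0.477). The ratio was −0.39 with Sox2-Tbx2LOF in Cy3 and 0.049 in Cy5, and the 2 further Cdk1 probes had means of −0.14 and −0.0052.

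B-type cyclins are the partners of Cdk1. Ccnb1 had levels of 12.37, 12.34, 12.19 and 12.30 in Sox2-Tbx2LOF pools and 12.22, 12.57, 12.39 and 12.58 in control pools. Control pool 1 lay within the Sox2-Tbx2LOF values and the other control pools above them, and the mean was −0.14 ± 0.20 (SD, n = 4) (SE 0.063, unadjusted p 0.0522, adjusted p 0.715). Ccnb2, whose promoter is printed above, was at 13.18, 13.48, 13.22 and 13.42 against 13.39, 13.45, 13.40 and 13.55. Its Sox2-Tbx2LOF pools 1 and 3 were below all control pools and pools 2 and 4 were not, with a mean of −0.13 ± 0.11 (SD, n = 4) (SE 0.05, unadjusted p 0.0354, adjusted p 0.612).

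Plk1 and Aurka are kinases that act at the centrosome and bring Cdk1 into action. Plk1 was at 12.65, 12.65, 12.50 and 12.63 in Sox2-Tbx2LOF and at 12.90, 12.64, 12.72 and 12.77 in control. The control pools were above the others except pool 2, which lay inside the range of Sox2-Tbx2LOF, and the mean was −0.15 ± 0.12 (SD, n = 4) (SE 0.05, unadjusted p 0.0153, adjusted p 0.391). Aurka was at 12.28, 12.46, 12.17 and 12.37 against 12.41, 12.50, 12.42 and 12.44. Sox2-Tbx2LOF pool 2 reached into the control range while the others were below it, and the mean was −0.12 ± 0.091 (SD, n = 4), lower on 4 of 4 arrays (SE 0.048, unadjusted p 0.035, adjusted p 0.611). The phosphatases that activate Cdk1 differed in position: Cdc25c was at −0.11 ± 0.11 (SD, n = 4), and Cdc25b was at −0.012 ± 0.083 (SD, n = 4; p 0.812). Levels of Cdc25b were 11.72, 11.87, 11.89 and 11.97 in Sox2-Tbx2LOF and 11.79, 11.87, 11.97 and 11.87 in control, with overlap.

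**Figure D2:**
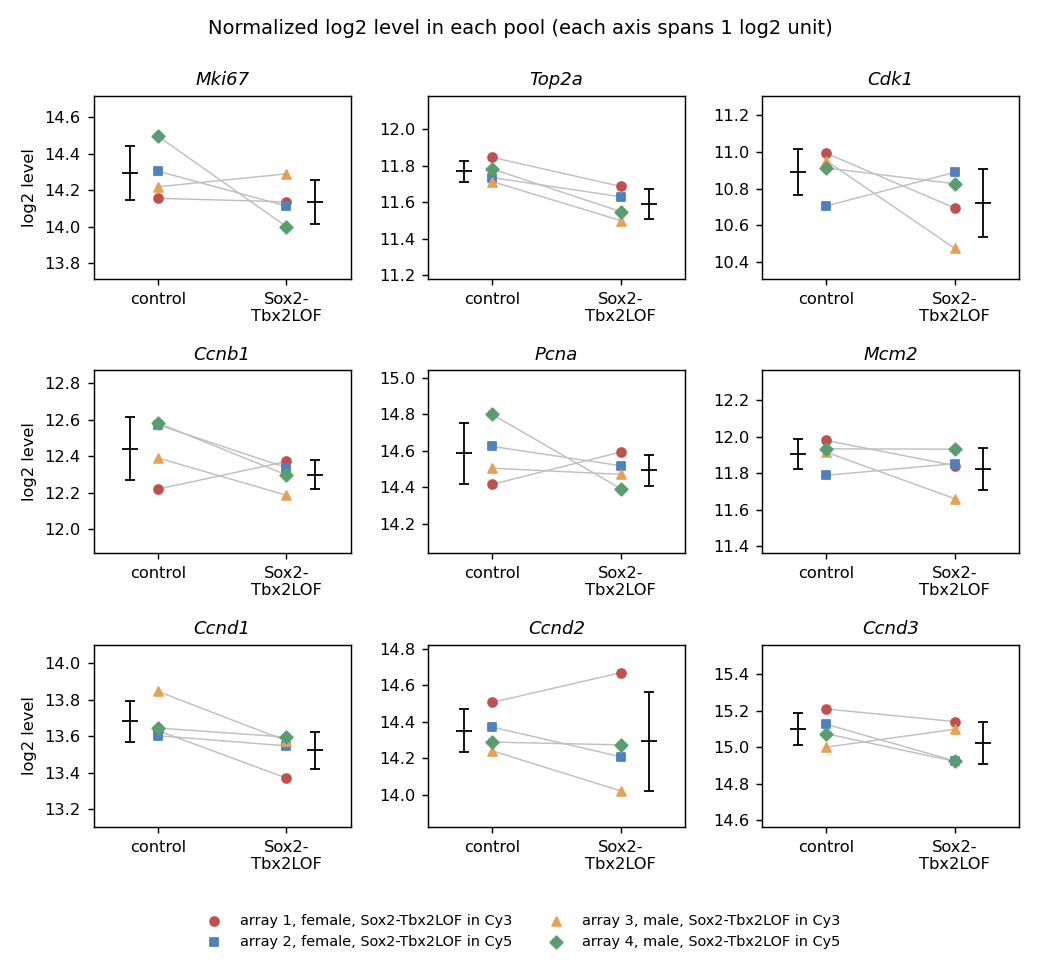
Normalized log2 level (y axis, spanning 1 log2 unit in each panel) in the 4 control and 4 Sox2-Tbx2LOF pools for 9 proliferation genes. Lines join the pools of 1 array, and black bars give the group mean with its SD (n = 4). For Top2a and Ccnd1 every Sox2-Tbx2LOF pool lies below every control pool, and the other panels overlap.

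Genes of chromosomes, kinetochore and checkpoint had a median log2 ratio of −0.16 over 9 genes, and 7 of the 9 had an unadjusted p under 0.05, all lower, against 3.54% of all tested probes. Top2a encodes the topoisomerase that untangles sister chromosomes. Its log2 levels were 11.69, 11.63, 11.50 and 11.55 in Sox2-Tbx2LOF pools and 11.85, 11.74, 11.71 and 11.78 in control pools, with no overlap. The mean log2 ratio of Top2a was −0.18 ± 0.058 (SD, n = 4), or −11.6%, lower on 4 of 4 arrays (SE 0.049, unadjusted p 0.00612, adjusted p 0.227). Both dye orientations gave similar values, −0.19 and −0.17. The probe lies at mm9 chr11:98855522-98855581 and starts at base 4517 of the transcript.

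Mki67 encodes Ki-67, a coat protein of mitotic chromosomes that marks cycling cells. It was at 14.14, 14.11, 14.29 and 14.00 in Sox2-Tbx2LOF and at 14.16, 14.30, 14.22 and 14.50 in control. Control pool 4 was the highest and Sox2-Tbx2LOF pool 4 the lowest of the 8, and the groups overlapped. The mean log2 ratio of Mki67 was −0.16 ± 0.25 (SD, n = 4) (SE 0.06, unadjusted p 0.028, adjusted p 0.545), with ratios of −0.019, −0.19, 0.071 and −0.49 on arrays 1 to 4. Another Mki67 probe, which starts at base 9668 of the transcript instead of 9895, had ratios of −0.31, 0.050, −0.11 and −0.27. The means of both probes were −0.16 although the arrays that stood low were not the same.

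Bub1b and Bub1 belong to the spindle checkpoint, which holds cells until all chromosomes are attached. Bub1b was at 10.30, 10.41, 10.32 and 10.38 in Sox2-Tbx2LOF and at 10.44, 10.57, 10.48 and 10.53 in control, so that the groups just did not overlap. Its ratio hardly varied between arrays, with a mean of −0.15 ± 0.0084 (SD, n = 4), lower on 4 of 4 arrays (SE 0.046, unadjusted p 0.0102, adjusted p 0.307). Bub1 was at 10.79, 10.95, 10.84 and 10.81 against 10.93, 10.95, 11.06 and 11.17. Sox2-Tbx2LOF pool 2 lay within the control range, and the mean was −0.18 ± 0.15 (SD, n = 4), lower on 4 of 4 arrays (SE 0.064, unadjusted p 0.0207, adjusted p 0.468).

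Birc5, the gene of survivin in the chromosomal passenger complex, was at 13.88, 13.81, 13.88 and 13.85 in Sox2-Tbx2LOF and at 13.91, 14.03, 13.96 and 14.15 in control. All control pools were higher, and the mean was −0.16 ± 0.12 (SD, n = 4), lower on 4 of 4 arrays (SE 0.048, unadjusted p 0.0101, adjusted p 0.306). Its further probes were at −0.15 and −0.13. Aurkb, the kinase of the same complex, was at −0.10 ± 0.14 (SD, n = 4) (p 0.0764).

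Centromere proteins build the site where spindle fibres attach. Cenpa, the centromeric histone, was at 11.77, 11.79, 11.69 and 11.91 in Sox2-Tbx2LOF and at 11.95, 11.91, 11.92 and 11.97 in control. Sox2-Tbx2LOF pool 4 slightly passed the lowest control pool and the other pools were below, with a mean of −0.15 ± 0.076 (SD, n = 4), lower on 4 of 4 arrays (SE 0.047, unadjusted p 0.0136, adjusted p 0.368). Cenpe, a motor of the kinetochore, was at 13.72, 13.67, 13.46 and 13.74 against 13.70, 13.94, 13.77 and 13.93. Control pool 1 was the lowest of its group and lay within the Sox2-Tbx2LOF values, and the mean was −0.19 ± 0.15 (SD, n = 4), or −12.4% (SE 0.062, unadjusted p 0.014, adjusted p 0.374). Cenpf was closer to 0, at −0.052 ± 0.089 (SD, n = 4) (p 0.294).

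The spindle and exit genes had a median log2 ratio of −0.13 over 5 genes, which became −0.19 without array 2 and −0.063 without array 4. Tpx2, which helps microtubules to form around chromosomes, was at 11.35, 11.62, 11.60 and 11.51 in Sox2-Tbx2LOF and at 11.66, 11.59, 11.73 and 11.73 in control. Sox2-Tbx2LOF pools 2 and 3 reached into the control range, and the mean was −0.16 ± 0.14 (SD, n = 4) (SE 0.059, unadjusted p 0.0269, adjusted p 0.534). Cdc20, which activates the ubiquitin ligase that ends mitosis, was at 13.42, 13.37, 13.25 and 13.53 against 13.57, 13.43, 13.50 and 13.57. Sox2-Tbx2LOF pool 4 lay within the control values and the others below them, with a mean of −0.13 ± 0.098 (SD, n = 4), lower on 4 of 4 arrays (SE 0.048, unadjusted p 0.0261, adjusted p 0.526). The spindle motors Kif11 and Kif23 were at −0.056 ± 0.29 (SD, n = 4) and −0.13 ± 0.21 (SD, n = 4), and Nusap1, which bundles spindle fibres, at −0.13 ± 0.20 (SD, n = 4). Kif11 ranged from −0.28 with Sox2-Tbx2LOF in Cy3 to 0.16 in Cy5.

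Members with more than 1 probe gave a similar picture at the level of means. Of 17 further tested probes, 16 were below 0, the median log2 ratio being −0.12 and the highest 0.0021, for a Cdk4 probe. They differed from the brightest probe of the gene by 0.024 in the median and by 0.17 at most, for Cdk1. The array pattern of a gene was less stable between probes: the 3 Ccnb1 probes had means of −0.14, −0.13 and −0.14, yet on array 1 they were at 0.15, −0.23 and −0.090.

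Further genes of the cell cycle were read from lists drawn up by function. Of 57 other mitosis genes, 53 were below 0 with a median log2 ratio of −0.12, and of 40 other replication genes, 37 were below 0 with a median of −0.056. An unadjusted p under 0.05 was reached by 22 and 9 of them, all lower, against 3.54% of all tested probes, and an adjusted p under 0.05 by 0 of either list. The lowest among mitosis genes were Cks2, a subunit of Cdk1 complexes, at −0.21 ± 0.36 (SD, n = 4; adjusted p 0.11), Ect2, needed for cell cleavage, at −0.21 (adjusted p 0.189), and Sgol1, a guard of sister chromatid cohesion, at −0.20 (adjusted p 0.244). Cks2 was lower on 2 of 4 arrays, Ect2 and Sgol1 on 4 of 4. Among replication genes they were Mcm10, a helicase cofactor, at −0.19 (adjusted p 0.244), Uhrf1, which maintains DNA methylation, at −0.19 (adjusted p 0.337), and Pole, a replicative polymerase, at −0.17 (adjusted p 0.286).

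G1 brakes lay on both sides of 0. Of 23 genes, 13 were below and 10 above, with a median of −0.013, and 0 passed the test after adjustment. Cdkn1b, the inhibitor known for cell cycle exit in the organ of Corti, had ratios of −0.19, 0.19, 0.035 and −0.021 on arrays 1 to 4 and a mean of 0.0031 ± 0.16 (SD, n = 4; p 0.96). Rb1 was at 0.0012 ± 0.26 (SD, n = 4; p 0.981). An unadjusted p under 0.05 was reached upward by 2 genes, against 3.58% of all tested probes: Ccng1, a p53 target, at 0.21 (p 0.0211), and the inhibitor Cdkn1c at 0.15 (p 0.0275). Downward it was reached by 4 genes, against 3.54% of all, namely the repressors E2f7 at −0.20 (p 0.00306) and E2f8 at −0.16 (p 0.0149), which are themselves made in cycling cells, and the inhibitors Cdkn2a at −0.18 (p 0.0201) and Cdkn2b at −0.16 (p 0.0336). Cdkn1c, E2f8 and Cdkn2b were named after their values were seen.

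**Figure D3:**
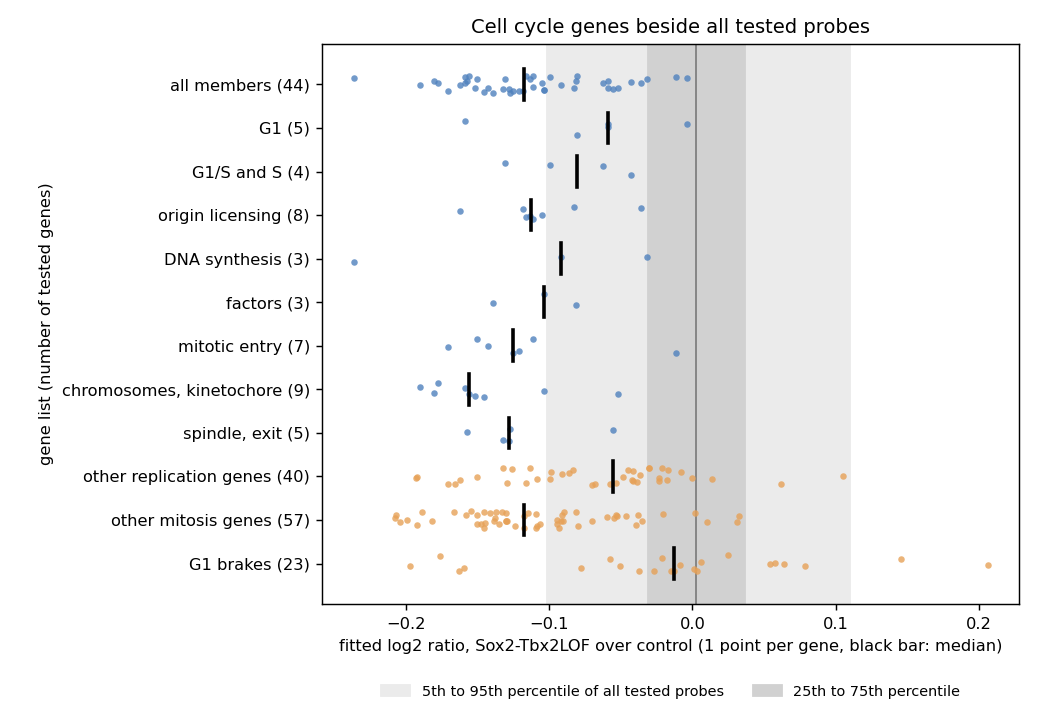
Fitted log2 ratio of Sox2-Tbx2LOF over control (x axis) for the tested proliferation genes, their role groups and other cell cycle genes (y axis), with 1 point per gene and a black bar at the median. Grey bands give the 5th to 95th and the 25th to 75th percentile of all 28104 tested probes. The medians of members and of other mitosis genes are −0.12 for either, and that of the G1 brakes lies near 0.

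Markers of cell types were read alongside. Of 10 mesenchyme markers, 9 were above 0 with a median log2 ratio of 0.070, and their mean level was 14.00 to 14.17 in Sox2-Tbx2LOF pools and 13.89 to 14.08 in control pools. Col1a1 was the highest of them, at 0.34 (p 0.000675, adjusted p 0.0608). Of 9 supporting cell markers, 7 were above 0 with a median of 0.10 and a mean level of 12.62 to 12.72 against 12.49 to 12.59, which did not overlap, and Hey2 passed the test (0.29, adjusted p 0.0409). Hair cell markers were at a median of 0.041, with 6 of 9 above 0, and Otof passed the test with a lower level (−0.40, adjusted p 0.00985). All 6 vessel markers were above 0 (median 0.076) and 4 of 6 macrophage markers were below it (median −0.011). Glia and neuron lists had medians of 0.0044 and 0.033, and the cochlear floor list 0.032. Only 3 of 6 red blood cell and 5 of 6 melanocyte markers were tested, with medians of −0.078 and −0.088. All 3 of these red blood cell markers and 4 of these 5 melanocyte markers were below 0. The part of such differences in the lower ratios of proliferation genes was not tested.

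**Figure D4:**
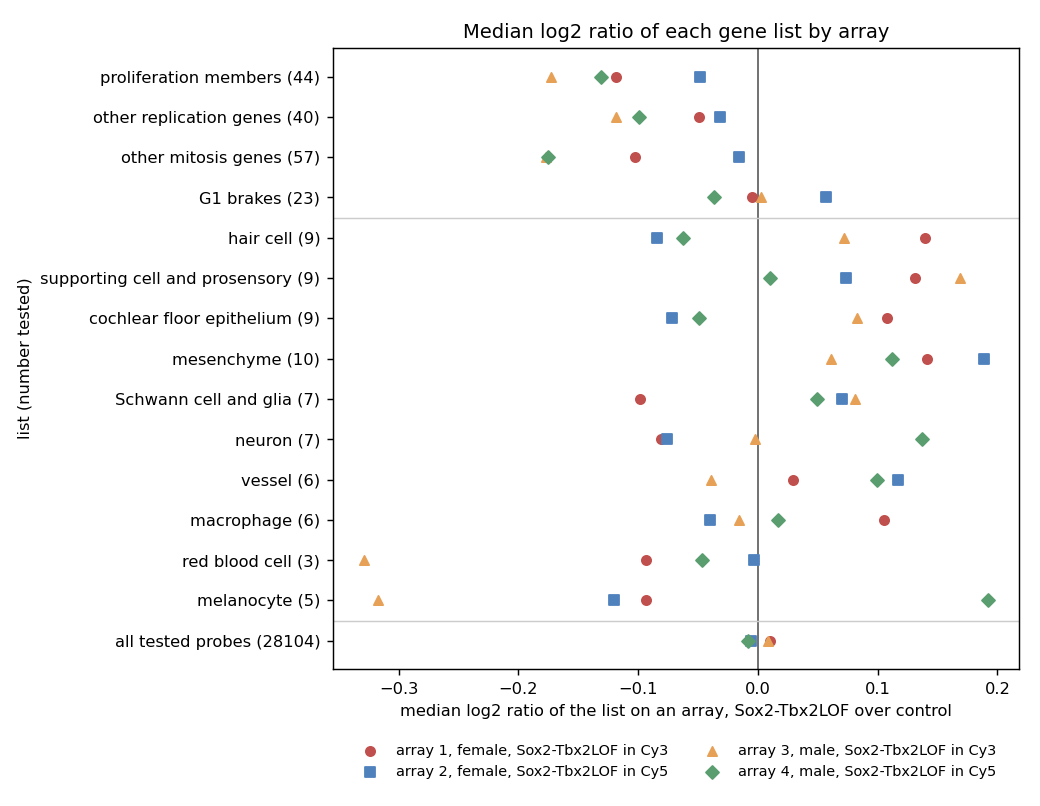
Median log2 ratio of Sox2-Tbx2LOF over control (x axis) on each of the 4 arrays for proliferation genes, other cell cycle lists, cell type marker lists and all tested probes (y axis). The proliferation genes, other replication genes and other mitosis genes lie below 0 on all 4 arrays, and the mesenchyme and supporting cell lists lie above 0 on all 4. The red blood cell list, with 3 tested genes, also lies below 0 on all 4, at −0.0035 on array 2.

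Female and male pools gave the same direction for the members as a group. The median log2 ratio was −0.073 on the female arrays and −0.16 on the male arrays. A sex by genotype term in limma gave an adjusted p under 0.05 for 0 members and for 0% of all probes, so no difference between the sexes was detected with 2 arrays per sex. At an unadjusted p under 0.05 there were 2 members, against 2.01% of all probes: Mcm4 and Pcna, for which the male ratio minus the female ratio was −0.25 ± 0.11 (SE; p 0.0461) and −0.26 ± 0.11 (SE; p 0.0463). Levels differed between sexes at an adjusted p under 0.05 for 0 members and for 0.0463% of all probes. Aurkb, at 7.47 in female and 7.17 in male arrays (p 0.0179, adjusted p 0.691), and Mcm5, at 12.44 and 12.60 (p 0.0282, adjusted p 0.691), had an unadjusted p under 0.05, against 7.03% of all probes. These 4 genes were picked after their values were seen. By dye, the median over members was −0.15 with Sox2-Tbx2LOF in Cy3 and −0.087 in Cy5, below 0 in both orientations.

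The direction of the list was kept under every processing tried, in which 42 to 45 members were below 0. With no dye term, no pairing or another filter, the ratio of a gene stays the same by design. The median log2 ratio lay between −0.15 without array 2 and −0.088 without array 4, and the median of all probes between 0.0005 and 0.013. With the log ratio of the scanner software the members' median was −0.13, and with the value table of the series −0.13.

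**Figure D5:**
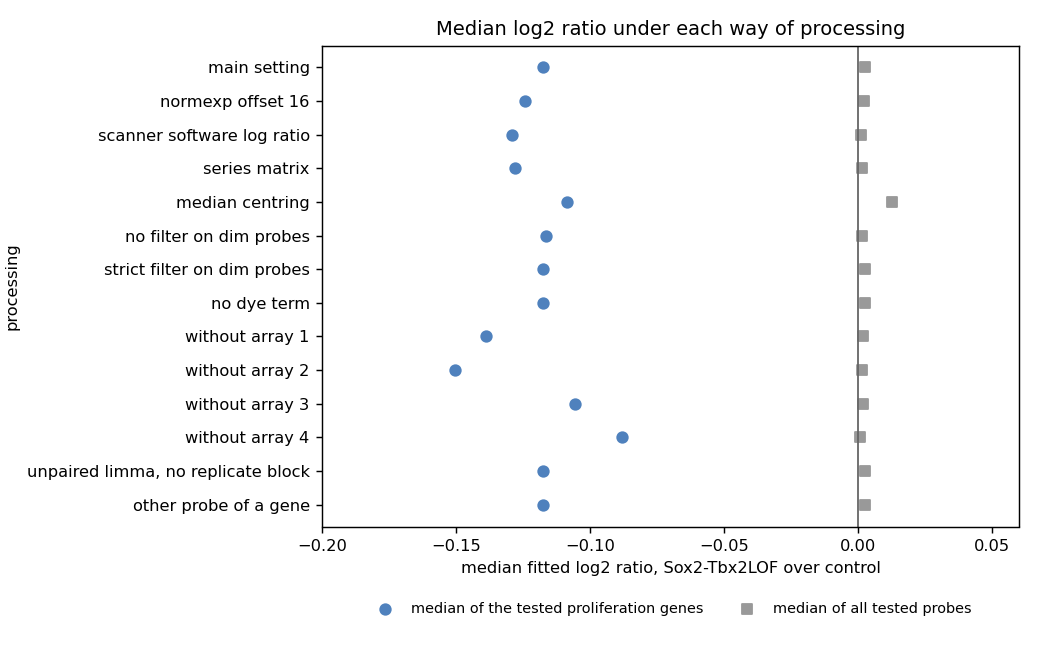
Median fitted log2 ratio of Sox2-Tbx2LOF over control (x axis) of the tested proliferation genes and of all tested probes under each way of processing (y axis). The members' median stays between −0.15 and −0.088, and that of all probes between 0.0005 and 0.013.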

How the data were processed

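Total RNA of 8 pools was hybridised to 4 dual-colour arrays. The deposited scanner files hold spot intensity on a linear scale, read by the authors with the software Agilent Feature Extraction 10.7.3.1 and not normalized, and a log10 ratio of red over green that the software had corrected for background and dye. The deposited value table holds a signed fold change, a score whose normalization by the authors is not given in the sources used here. It was used as an alternative, and it correlated across probes with the ratios used here with r of 0.903 to 0.926.

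Background was corrected with normexp (offset 50) in limma 3.58.1 under R 4.3.3, followed by loess within arrays, and levels were brought to a common scale by quantile normalization of the average brightness. Spots with outlier flags were left out, and the 4 spots of a probe were averaged on the log2 scale. Probes well above background (in over 0.5 of their spots) on at least 3 arrays in either genotype were tested, which left 28104 of 39429 probes. Ratios within an array were fitted in limma with a dye term, so the pools of an array were paired, with Benjamini-Hochberg adjustment over all tested probes and two-sided p-values. Loess assumes that most genes do not change. The number of arrays limits the precision. The fit and SAM were tested on simulated data.

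The members and lists were chosen with earlier results of these data known. Values in every pool were given for Mki67, Top2a, Cdk1, Ccnb1, Pcna, Mcm2 and the D-type cyclins, for members with an unadjusted p under 0.05, and for the 3 highest and 3 lowest ratios. Of other cell cycle genes, the 3 largest absolute ratios of each list, Cdkn1b and Rb1 were named, besides 3 further G1 brakes with an unadjusted p under 0.05. Positions of probes refer to mm9, as in the array files, which do not give the exon. Promoters came from RefSeq on GRCm38.p6. Alternatives were another offset, median centring, other filters, no dye term, an unpaired fit, SAM, all tested probes of a gene and both authors' ratios. Each array was also left out in turn.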

Additional observations from a re-analysis of the deposited data

Results flagged for a closer look

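Of 141 groups of 4 values, 132 were the levels in each genotype or the ratios of a tested member and 9 were the medians by array of all members or a role group. In 8 of them a value lay far from the other 3 by Dixon's test, where chance gives about 5% of groups. The Cdc6 ratio on array 4 was −0.61, against −0.041 to 0.041 on the other arrays. The other flags concern log2 levels. Control pool 1 was high for Cdc25a (13.16, against 12.89 to 12.94) and low for Mcm7 (14.22, against 14.51 to 14.52), and control pool 2 was low for Kif23 (10.85, against 11.06 to 11.08). Sox2-Tbx2LOF pool 1 was low for Mcm5 (12.31, against 12.50 to 12.53) and high for E2f1 (10.62, against 10.27 to 10.32) and Aurkb (7.64, against 7.11 to 7.18). Sox2-Tbx2LOF pool 3 was low for Plk1 (12.50, against 12.63 to 12.65).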

How the results depend on the processing

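Of 540 values of single genes under alternatives, 531 kept direction and side of the threshold. The fits with no dye term, with no pairing or with another filter return the same ratio of a gene by design. Their values, 44 in each, could change only in p and say nothing on direction. Reversed values, all close to 0, belonged to 5 genes: Ccnd2 (0.037 without replicate 3), Cdk6 (0.0088 with median centring, 0.0000 without replicate 1 and 0.030 without replicate 4), Tyms (0.025 without replicate 3), Cdc25b (0.0067 with median centring and 0.012 without replicate 2) and Kif11 (0.032 without replicate 4). With 1 array left out these ranged from −0.15 to 0.037 for Ccnd2, from −0.037 to 0.030 for Cdk6, from −0.088 to 0.025 for Tyms, from −0.036 to 0.012 for Cdc25b and from −0.14 to 0.032 for Kif11. The number of members with an adjusted p under 0.05 was 0 to 1 when 1 array was left out, the single call being Cdc6 without replicate 2 at an adjusted p of 0.0278. The median of the G1 genes, −0.059, moved to −0.043 with the value table and to −0.077 with median centring. It was −0.043 when each gene took the median over its tested probes, and between −0.093 and −0.039 with 1 array left out. Without the pairing by array (no replicate block), 0 members passed. The median of −0.12 could not move in that fit, which returns the same ratios and changes only the p-values. The 16 members with an unadjusted p under 0.05 became 23 without array 2, 18 without array 1 and 18 with no filter on dim probes. They became 10 with the value table, 10 with median centring and 10 without a dye term. Without array 3 there were 9, without array 4 there were 6, and otherwise 13 to 17. Taking the lowest p over all tested probes of each gene gave 18, a count that cannot fall below 16. Over all probes, the 277 with an adjusted p under 0.05 became 1 with the value table, 116 without a dye term, 125 unpaired and 442 without array 2, and the 70 that also passed the fold limit became 1 with the value table, 124 with the scanner software's ratio and 106 without array 1. The cause of these shifts was not tested. With 4 arrays, the SE of a single gene was 0.046 to 0.083. For dim probes, such as those of Cdk6, Aurkb and Cenpf, the offset shrinks ratios.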
